A study of Mus musculus with 2 samples.

Results

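The clustered protocadherin region was taken as mouse chromosome 18 from 36900000 to 38100000 on genome build mm8, and its members were the array probes that start inside it. It held 30 of 90526 non-control probes. The region's mean was compared with the 88644 other autosomal probes, which include the other 2544 of chromosome 18. Of these, 87859 and 2514 were kept. Hypothalamic DNA of female mice at postnatal day 21 (P21) was hybridised together with that of newborn females (P0) on 2 two-colour tiling arrays, A and B. At both ages the animals were non-agouti and of mixed C57BL/6J and C3H/HeJ background. P0 carried the red dye on array A and P21 on array B. The design text calls the arrays biological replicates without giving the number of animals or any pooling, so errors given as SD (n = 2) measure the spread between these arrays, and whole hypothalamus mixes many cell types.

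Clustered protocadherins are cell-surface adhesion proteins of the cadherin superfamily, and single neurons express different combinations of them, which serve neurons in telling their own branches from those of others. In the alpha and gamma clusters, variable exons each have a promoter of their own and are spliced to constant exons shared by the cluster, whereas each beta gene is a single exon. Choice among these promoters is known to involve DNA methylation and the protein CTCF, which binds many of them when they are unmethylated. The RefSeq gene table used here, on assembly GRCm38, lists 58 such genes on this chromosome, with 14 alpha, 22 beta and 22 gamma members in that order along it. The array files pair none of their probes with a gene and are on another build, so the results are given by position and no position was assigned to a cluster or a gene.

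The assay reports restriction fragments amplified by PCR. Of 500 ng of DNA, copies of the CCCGGG site that were unmethylated were first cut blunt by SmaI, and the methylated copies were then cut by XmaI, whose overhangs take the adaptors. More signal for an age therefore means more amplified fragments whose end sites were methylated. The ratio is relative within an array and is no methylation percentage. All values below are log2 ratios of P21 over P0, centred on the median of each array, unless a signal or a fold is named.

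The array looked at little of the region. Its 30 probes, 45 to 60 nt long, formed 5 runs, a run being probes separated by gaps of at most 500 bp. Together the runs spanned 7.04 kb of 1200 kb, or 0.586%, and 8 of 12 windows of 100 kb held no probe. The longest stretch between runs was 467 kb. Probe density was 25.0 per Mb against 30.3 per Mb over chromosome 18. All 30 probes were well above background for both ages on both arrays, and none (0) carried an outlier flag. The scanner software's own error for the log2 ratio of 1 probe on 1 array was 0.20 to 0.24.

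Of the 5 runs, 1 passed the threshold as higher at P21, a 2.9-kb stretch of 16 probes from 37946003 to 37948903. Its log2 ratio was 0.83 and 0.81 on arrays A and B, a mean of 0.82 ± 0.016 (SD, n = 2) or 1.77-fold, and it passed limma fitted on all 18761 runs of at least 2 probes (adjusted p = 0.00909). The 4 other runs had mean log2 ratios between -0.32 and 0.19 and none passed (limma adjusted p from 0.276 to 0.591). The count of runs called was therefore 1 of 5 higher and 0 of 5 lower, where 7.65% of all runs were called higher and 3.99% lower. At an unadjusted limma p under 0.05 there was likewise 1 of 5, where 24.7% of all runs were under it. Both arrays put P21 higher in 2 of the 5 runs, the 16-probe run and the leftmost one, where 29.2% of all runs were higher on both. By a rule of size, a mean change of at least 2-fold with at least 1.5-fold in the same direction on each array, 0 runs of the region were higher and 0 lower, against 3.71% and 0.501% of all runs. Applied to ratios that were not turned for dye, the same rule picked 0 runs here and 8 of all.

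**Figure D1:**
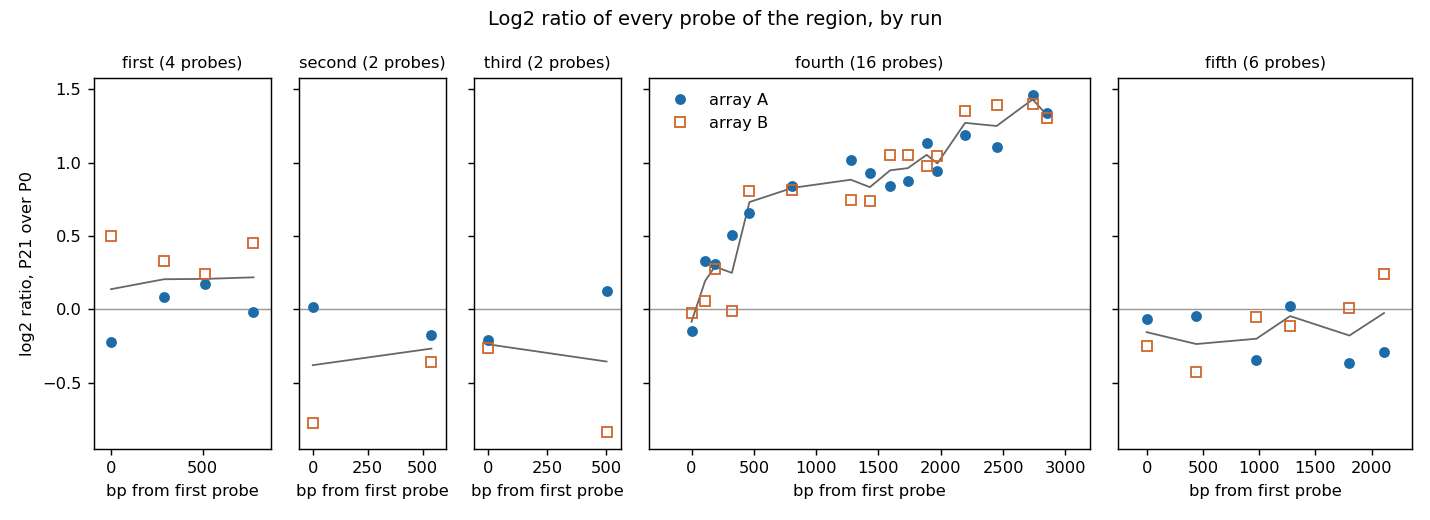
Log2 ratio of P21 over P0 for each of the 30 probes (vertical axis), by distance in bp from the first probe of its run (horizontal axis), in 5 panels for the 5 runs in order of position. Filled circles are array A, open squares array B and the line joins their means. In the 16-probe run both arrays climb from near 0 to above 1, and in the other runs the points lie on either side of 0.

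The ratio was not level along the 16-probe run. It was near 0 at the left end and rose to about 2.5-fold at the right end, on both arrays. The first 4 probes (37946003 to 37946373) averaged 0.25 and 0.07 on arrays A and B, a mean of 0.16 ± 0.12 (SD, n = 2). The next 8 probes (37946468 to 37948020) averaged 0.90 on both arrays, which is 1.87-fold. The last 4 (37948198 to 37948903) averaged 1.27 and 1.36, a mean of 1.32 ± 0.062 or 2.49-fold. On array B these groups of probes did not overlap: the first 4 ran up to 0.27, the next 8 from 0.74 to 1.06, and the last 4 began at 1.30. On array A the first 4 ran up to 0.51 and the next 8 began at 0.66, but the next 8 reached 1.13 and the last 4 began at 1.11, so those groups overlapped. The groups were drawn after the values were seen, in a run that rises with position. Whether they overlap is therefore a description and tests nothing.

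The signals behind these ratios are given for 5 probes spread along the run. At its first probe, from 37946003, P21 signal was 6501 and P0 signal 7204 on array A, and 4997 and 5076 on array B. The ages thus differed by less than the scanner's error there, with log2 ratios of -0.15 and -0.02. At the probe from 37946468, the fifth of the run, P21 signal was 7721 against 4901 for P0 on array A, and 7372 against 4214 on array B. The P21 signal was higher on both arrays, with log2 ratios of 0.66 and 0.81. At the probe from 37947976 both ages were bright, with P21 at 47281 and P0 at 24559 on array A and P21 at 36854 and P0 at 17853 on array B. The log2 ratios of 0.95 and 1.05 show P21 at about the same multiple of P0 on both arrays. At the probe from 37948740 the P21 signal was 15788 against 5739 on array A, and 13551 against 5121 on array B. This was the largest difference of the region (1.46 and 1.40, mean 1.43 ± 0.040, 2.70-fold) and the one probe past the threshold in limma on all probes (adjusted p = 0.0472). The last probe, from 37948859, had P21 at 19942 and P0 at 7883 on array A and P21 at 13899 and P0 at 5633 on array B. Its ratios, 1.34 and 1.30, lay close to those of its neighbour.

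**Figure D2:**
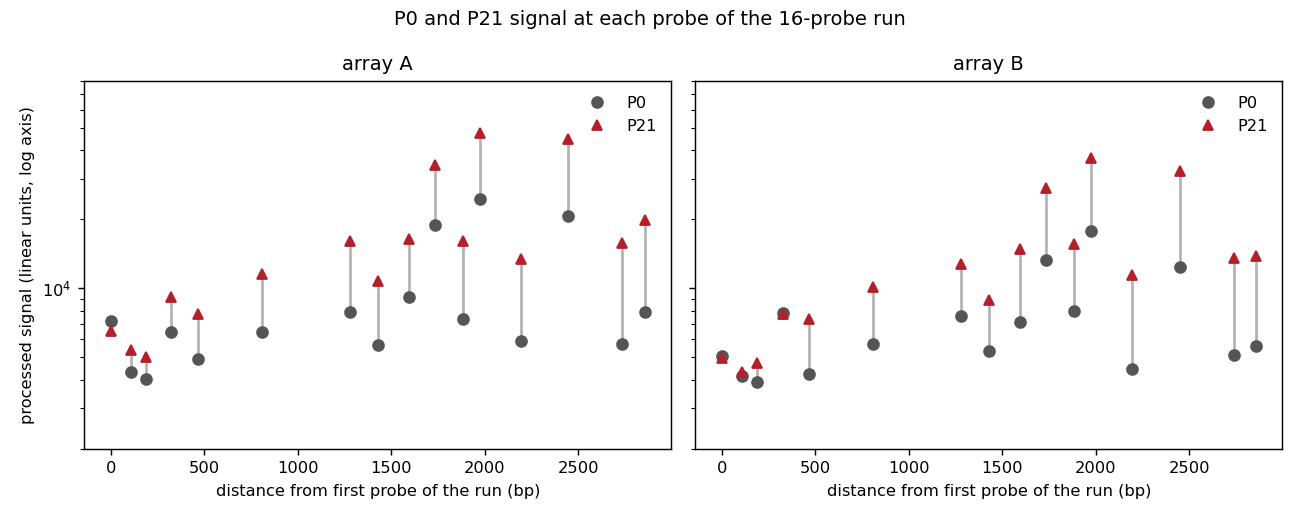
Processed signal of P0 (circles) and P21 (triangles) at the 16 probes of the run on a log axis, by distance in bp from the first probe, with array A on the left and array B on the right; each grey line joins the ages at 1 probe. Levels of different probes are not comparable, since probes differ in how well they bind. The distance between the symbols widens to the right on both arrays.

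The remaining probes of this run filled in the same course. Those from 37946112, 37946190 and 37946327 had 0.33, 0.31 and 0.51 on array A and 0.06, 0.27 and -0.01 on array B. The last of these 3 was the probe of the run on which the arrays differed most, by 0.52. From 37946813 to 37947479, 3 probes had 0.84, 1.02 and 0.93 on array A and 0.82, 0.75 and 0.74 on array B. From 37947597 to 37947933, 3 more had 0.84, 0.87 and 1.13 on array A and 1.06, 1.05 and 0.97 on array B. The probes from 37948198 and 37948451 stood at 1.19 and 1.11 on array A and at 1.35 and 1.39 on array B. Of the 16 probes, 14 were higher at P21 on both arrays, 1 was lower on both (the first) and 1 differed in sign. Of all probes on the arrays, 28.0% were higher and 28.2% lower on both. The 16 are neighbours in 1 run and not independent.

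A straight line through the 16 probes rose by 0.40 per kb on array A and 0.48 per kb on array B. The residual spread about that line was 0.16 and 0.18 on arrays A and B. A single step between 2 levels left 0.22 on each, with the step after probe 5 on array A and after probe 4 on array B. The ratio climbed fastest among the first 5 probes and more slowly after them. Across the 16 probes the arrays correlated with r = 0.90, and with r = 0.34 once each array's line was removed. These r are descriptions over neighbouring probes of 1 run, which are not independent, so they have no p.

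To set the end-to-end change beside other runs, the mean of the last 4 probes minus that of the first 4 was fitted in limma over all 2699 runs of at least 8 probes. The measure was chosen after the rise had been seen. Here it was 1.03 and 1.29 on arrays A and B, a mean of 1.16 ± 0.19 (SD, n = 2; limma adjusted p = 9.53e-05), and it ranked number 141 in size. Of all such runs, 13.1% passed. The slope per kb, fitted the same way, averaged 0.44 ± 0.054 and did not pass (limma adjusted p = 0.312). No slope of any run passed (0 of 2699, or 0.00%), while 444 had an unadjusted limma p under 0.05. By size of slope the run ranked number 637, and the median size over all runs was 0.20 per kb. With normexp background correction and no loess, the end-to-end change was 1.06 and no longer passed (limma adjusted p = 0.506).

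**Figure D3:**
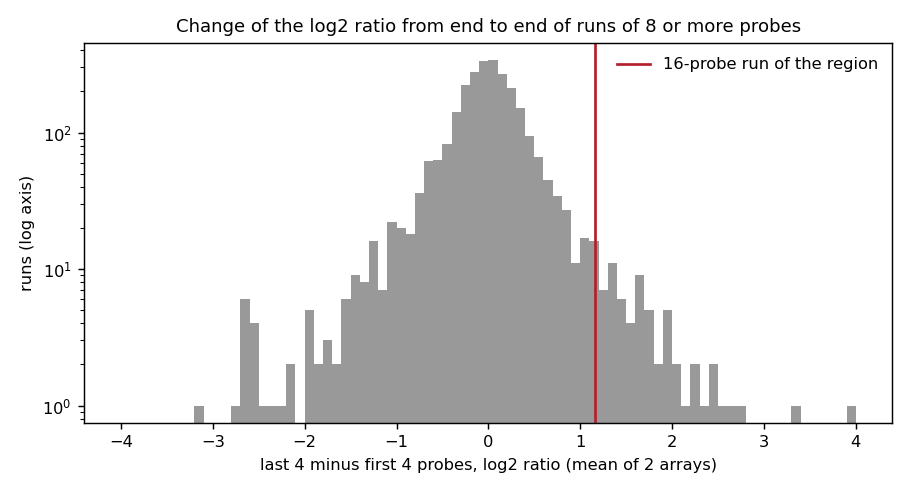
Number of runs of 8 or more probes (vertical log axis) by the log2 ratio of their last 4 probes minus that of their first 4 (horizontal axis, mean of 2 arrays). The line marks the 16-probe run of the region at 1.16, to the right of most runs, with further runs beyond it on both sides.

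Among all runs, the size of the gain in the 16-probe run was not at the extreme. It ranked number 942 of 18761 from the highest, with 95.0% of runs below it. Among 1057 runs of at least 10 probes it ranked number 68. In those long runs 11.5% were called higher, and 4 runs were called lower. With normexp background correction and no loess its log2 ratio was 1.03 ± 0.44 and no longer passed (limma adjusted p = 0.411). That setting left 0 of 5 runs called higher in limma, against 1.48% of all runs, and 1 by the rule of size, against 2.68%. The fit that joins probes over gaps of at most 250 bp breaks the run at its wider gaps, and the piece with the most probes had 1.095 (limma adjusted p = 0.00189). That piece starts at 37947281 and leaves out the left end, whose probes had the lowest mean ratios of the run (-0.085 to 0.83). The rule of size then picked 1 run, against 4.40% of all.

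By single probes, 1 of 30 was called higher and 0 lower in limma, against 2.10% and 0.0925% of 89726 probes. At an unadjusted limma p under 0.05 there were 12 of 30, where 15.8% of all probes were under it, and all 12 lay in the 16-probe run. The count rested on the settings. With trend and robust settings in limma, 12 of 30 were called higher, against 5.70% of all probes, and they were the last 12 of the run. The same 12 positions were called when only probes well above background on every channel were fitted, against 7.32% of those probes. Normexp with loess gave 9 of 30 (2.76% of all probes), loess on processed signals 9 (5.57%) and centring on the mode 4 (3.24%). By the rule of size 5 probes were higher and 0 lower (4.50% and 0.868% of all probes), all 5 in the same run. Both arrays put P21 higher at 16 of the 30 probes and lower at 6, where 28.0% and 28.2% of all probes did so. Of those 16 higher probes, 14 lay in the 16-probe run.

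The leftmost run, 4 probes from 37132581 to 37133409, was bright at both ages and did not pass the threshold. Its first probe had P21 at 33310 and P0 at 38941 on array A, but P21 at 42167 and P0 at 29828 on array B. The second, from 37132869, had P21 at 18617 and P0 at 17601 on array A and P21 at 17988 and P0 at 14325 on array B. Array B gave the higher ratio at all 4 probes, with 0.24 to 0.50 against -0.23 to 0.17 on array A. The run averaged 0.00 and 0.38 on arrays A and B, a mean of 0.19 ± 0.27 (SD, n = 2; limma adjusted p = 0.508). Its P21 and P0 signals, averaged on the log2 scale over probes and arrays, were 14.8 and 14.6.

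In the middle of the region lay 2 short runs, 676 bp apart, with low to moderate signal at both ages. The run from 37600010 to 37600609 had P21 at 269 and P0 at 266 on array A at its first probe, and P21 at 171 and P0 at 293 on array B. At its second probe P21 was 262 and P0 297 on array A, and P21 was 251 and P0 322 on array B. P21 was thus the lower age in 3 of these 4 readings. The run averaged -0.08 and -0.57 on arrays A and B, a mean of -0.32 ± 0.34 (limma adjusted p = 0.276). The run from 37601285 to 37601833 had P21 at 607 and P0 at 703 on array A at its first probe, and P21 at 621 and P0 at 747 on array B. At its second probe P21 was 1848 and P0 1696 on array A, but P21 was 1180 and P0 2107 on array B. That probe had the widest disagreement between arrays of the region, 0.96. The run averaged -0.04 and -0.55, a mean of -0.30 ± 0.36 (limma adjusted p = 0.327), so that array B gave the lower ratio at all 4 probes of these runs.

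The rightmost run, 6 probes from 38088582 to 38090738, did not differ between the ages past the threshold. Its first 4 probes had signals from 581 to 1258 over both ages and arrays, and its last 2 from 27976 to 41478. The first 4 averaged -0.11 and -0.21 on arrays A and B, a mean of -0.16 ± 0.073 (SD, n = 2). The last 2 averaged -0.33 and 0.13 on arrays A and B, a mean of -0.10 ± 0.32, with opposite signs on the arrays. For the whole run the mean was -0.14 ± 0.059 (limma adjusted p = 0.591). A probe's brightness also depends on its sequence, and the files give no fragment ends, so what sets the bright and dim parts apart was not tested.

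In the main setting the arrays were closest in the 16-probe run, which had both the largest ratio and the most probes. The difference between them was 0.02 for that run and 0.08 for the 6-probe run, whose ratio of -0.14 was the smallest in size. It was 0.38, 0.49 and 0.51 for the others in order of position, which average 4, 2 and 2 probes. In this setting the difference was thus smaller in runs with more probes, but that order depended on the normalisation. With normexp and loess the SD between arrays was 0.095 for the 16-probe run and 0.011 for the 6-probe run. With loess on processed signals it was 0.056 for the 16-probe run and 0.034 for the leftmost. Under normexp without loess it was 0.44 for the 16-probe run and 0.13 for the run from 37601285. In the main setting the median difference over all runs, whatever their number of probes, was 0.20. Of the 30 probes, 5 differed by more than 0.5 between arrays, 1 in each run. Over the 14 probes outside the 16-probe run the arrays correlated with r = -0.20, a description. Those probes ranged from -0.37 to 0.17 on array A and from -0.84 to 0.50 on array B.

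**Figure D4:**
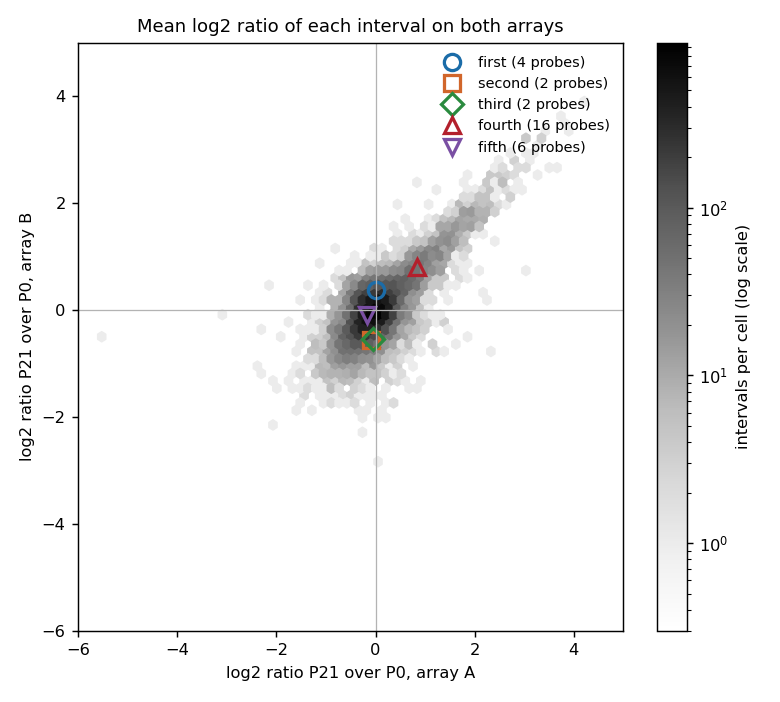
Mean log2 ratio of P21 over P0 on array A (horizontal axis) and array B (vertical axis) for all 18761 runs, as a grey density with a log scale, and for the 5 runs of the region as coloured symbols named by position and number of probes. The 16-probe run lies on the diagonal at 0.83 and 0.81, and the other 4 lie nearer to 0 on both axes.

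As a whole the region's probes had a higher mean log2 ratio than the rest of the autosomes, by 0.34 on either array (mean of 0.34 ± 0.00075, SD, n = 2). The arrays were less close under other normalisations. The SD was 0.048 with normexp and loess, 0.082 with loess on processed signals and 0.44 with normexp alone. No test was made of this mean difference, which is a single value. An exact two-sided permutation of the signs of 2 arrays gives no p below 0.5. The region's higher mean came from the 16-probe run. Without that run the 14 remaining probes were lower than the rest of the autosomes, with a mean log2 difference of -0.15 (-0.15 and -0.14 on arrays A and B). The median over the 5 runs was -0.14, against -0.02 over all runs and -0.04 over the other 535 runs of chromosome 18.

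By fixed segments of 400 kb, the first segment held 4 probes, with a median of 0.03 and 0.39 on arrays A and B. The next segment held 4 probes in 2 runs, with medians of -0.08 and -0.57. The last segment held 22 probes in 2 runs, with medians of 0.75 and 0.74. Of the 100-kb windows, 2 had the 5 probes needed for a fit. The window holding the 16-probe run passed (limma adjusted p = 1.11e-08) and the one holding the 6-probe run did not (limma adjusted p = 0.349). Each holds the same probes and values as its run, so these fits restate the runs with a spread shared over windows. This was 1 of 2, where 23.7% of 5246 windows passed in either direction.

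Just outside the limits, the nearest run on the left ended 40.5 kb before 36900000, at 36859511, with -0.01 and -0.03 on arrays A and B. The nearest on the right began 32.7 kb past 38100000, at 38132731, with -0.33 and -0.48. Further right, the run from 38211101 averaged 0.56 and 0.58 and passed (limma adjusted p = 0.0354). The runs from 38214265 and 38218180, with means of 0.47 and 0.21, did not. At 123 kb past the limit, the 4 probes from 38223288 averaged 1.74 and 1.84, or 3.46-fold (limma adjusted p = 0.000525). This was more than in any run inside the region. Beyond it, the runs from 38310532, 38336613 and 38349902 had means of 0.26, 0.06 and -0.05 and did not pass. These neighbours are given as a description.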

How the data were processed

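The scanner files were written by Feature Extraction, version 10.5.1.1 in their headers and 9.1.3.1 in the submitters' processing notes. Each spot has a deposited log10 ratio of red over green, made by the authors' software from background-subtracted, linearly dye-normalised signals, as the headers record. The processed intensity of each channel, on a linear scale, was also deposited, and other columns deposited with it are flags of 0 or 1. Ratios were put on the log2 scale, given the sign that makes them P21 over P0 by the dyes in the labels, and centred on each array's median, with no loess. Probes with an outlier flag on either array were dropped (30 spots on A, 775 on B), leaving 89726 of 90526 probes. No spot was saturated (0). Both arrays lie on 1 slide, so slide and scan could not be fitted as a block.

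Runs joined probes with gaps of at most 500 bp, and the 18761 of 21369 with at least 2 kept probes were tested. Runs, probes and 100-kb windows with at least 5 probes were fitted over the whole genome with limma 3.58.1 (lmFit and eBayes in R 4.3.3). Tests were two-sided, with Benjamini-Hochberg adjustment and a threshold of 0.05. Only the fit of runs was tried on simulated ratios, with spreads drawn from the prior of these arrays. With 2 arrays each fit has 1 residual degree of freedom plus a shared prior, which was 5.58 for runs. The fits of probes, windows, slopes and end-to-end changes each estimated a prior of their own, so p-values of different fits are not comparable. Arrays have no read depth, so their number limits the precision. The region and rules were chosen with earlier results of these data known. All runs fell under the rule for naming: called, brightest, most different between arrays, or with most probes. The values of the series matrix, deposited by the authors as log10, differed from the turned scanner values by at most 0.00496 and had medians of 0. Alternatives tried were normexp with an offset of 50 (with and without loess), loess, other centring, filters, gaps and limma settings, and each array left out.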

Additional observations from a re-analysis of the deposited data

How the results depend on the processing

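The mean ratio of the 16-probe run stayed above 0 in all 13 alternatives and passed limma in 10 of the 11 that allow a test. It ranged from 0.77 to 1.095, the highest being the piece left by gaps of at most 250 bp. Some of these alternatives could hardly differ from the main setting. Leaving out the centring gave identical values. The series matrix holds the same deposited ratios, and no probe of the region was flagged. With normexp and no loess the mean ratio was 1.03 and did not pass. That left 0 runs called higher in limma, against 1.48% of all runs, and 1 by the rule of size, against 2.68%. The end-to-end change of the 16-probe run was then 1.06, against 1.03 to 1.29 on single arrays. With gaps of at most 250 bp the rule of size picked 1 run, against 4.40% of all. With normexp and loess, 9 of 30 single probes were called higher in limma, against 2.76% of all probes. Loess on processed signals gave 9 (against 5.57%) and centring on the mode 4 (against 3.24%). Trend and robust settings gave 12 (against 5.70%), and the fit of probes well above background 12 (against 7.32%). The region's mean difference from other autosomal probes was 0.55 ± 0.44 (SD, n = 2) with normexp alone and 0.31 ± 0.082 with loess on processed signals. It was 0.33 ± 0.014 among probes well above background and 0.34 with flagged probes kept. Against chromosome 18 alone it was 0.40, and without the 16-probe run -0.15. In the main setting, 0.34 was also the lowest and the highest value on a single array. The median over the region's runs, -0.14 in the main setting, was -0.034 with normexp alone and -0.060 when loess followed it, and turned to 0.23 with gaps of at most 250 bp and to 0.19 with at least 3 probes, where fewer or other runs are counted; on single arrays it was -0.10 and -0.044. The other runs kept their sign in each alternative that held them, and passed in none that allows a test. With gaps of at most 250 bp the 2 short middle runs fell into single probes and were not fitted. The leftmost run was at 0.0028 on array A alone. The alternatives for the end-to-end change and the one without the 16-probe run were chosen after seeing the data. The cause of these shifts was not tested. All 30 probes were well above background, and the number of arrays limits the precision.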
